A study of Mus musculus with 6 samples.

Results

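The Rab, Arf and Arl genes encode small GTPases that direct membrane traffic, and this account covers the 72 of them that the platform annotation named singly, among 18193 genes so named. They were found by symbol: 59 Rab genes (Rab, a number and an optional letter), the 6 genes Arf1 to Arf6 and 7 Arl genes (Arl1, Arl2, Arl3, Arl11, Arl14, Arl15 and Arl16). Other Arl genes were not analysed here. Each gene was read from its probe set with the highest mean over the 6 arrays, and genes above 5 on the log2 scale on at least 3 arrays were tested, which kept 53 members and 8893 genes in all.

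A Rab protein switches between a GTP-bound form, which recruits tethers and motors to a particular organelle, and a GDP-bound form that a dissociation inhibitor can lift off the membrane. Rab proteins are held on membranes by prenyl lipids that the Rab prenyltransferase (GGTase-II) attaches with the help of an escort protein, whereas Arf proteins and some Arl proteins carry an amino-terminal myristoyl group. The enzyme deleted in this study, GGTase-I, is a separate prenyltransferase. In enterocytes, Rab proteins of the recycling endosome bring transporters and enzymes to the brush border.

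The arrays measured total RNA of intestinal epithelial cell preparations, with 1 array per mouse and 3 mice per group. All mice had a floxed Pggt1b gene, the gene for the GGTase-I beta subunit, on a mixed 129/SV and C57BL/6 background, and all were given 1 mg tamoxifen on each of 3 days, with cells taken on day 6. Control mice were negative for VillincreERT2, a tamoxifen-inducible recombinase under an epithelial promoter, and deficient mice were positive for it, so that the recombinase and the deletion cannot be told apart. Neither the animals' age and sex nor the intestinal segment is given in the sources used here. The labelled tissue was borne out by its markers: all 9 epithelial markers, such as Epcam and Vil1, were above 5 and stood at a mean of 13.1 to 13.3 in controls and 13.2 to 13.6 in deficient arrays. Correlations between arrays over the genes tested ran from 0.953 to 0.980 within groups and from 0.903 to 0.969 between them. The deleted gene itself did not separate the groups, with a Pggt1b change of -0.24 ± 0.27 (SE, limma adjusted p = 0.678). Its probe set is not placed relative to the deleted part in the sources used here, so directions rest on the labels.

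No gene of this family passed the test, which with so few genes is near what the share over all genes gives. With limma and Benjamini-Hochberg adjustment over all 8893 genes, 0 of 53 members passed the threshold of 0.05, against 2.09% of all genes tested. The median log2 change, deficient minus control, was 0.07 over the members and -0.04 over all genes tested. By mean, 30 members were higher and 23 lower in the deficient arrays. The members' changes had a median size of 0.22, beside 0.27 for all genes tested. In 37 of the 53 members the 95% interval of the change lay within 2-fold in both directions (64.6% of all genes tested). For the other 16 a change of 2-fold or more lay within the interval. In RNA from whole preparations, fewer cells of a type and less RNA per cell cannot be told apart.

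Before adjustment, a limma p under 0.05 was reached by 6 higher genes of the family (Rab31, Arf2, Rab24, Rab11a, Arl1 and Rab2a) and 6 lower ones (Arl15, Rab19, Rab17, Rab8b, Rab29 and Rab3a). These 12 are 22.6% of the members tested, where 16.9% of all genes tested reached that level, 5.60% higher and 11.3% lower. In 15 members the 3 deficient values lay wholly to one side of the 3 control values. The share is 28.3% of the members and 25.7% of all genes tested, so it is near the background. Changes of over 2-fold were fitted for 4 members, Rab31, Arf2, Arl15 and Rab19, which is 7.55% of those tested beside 7.53% of all genes tested.

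**Figure D1:**
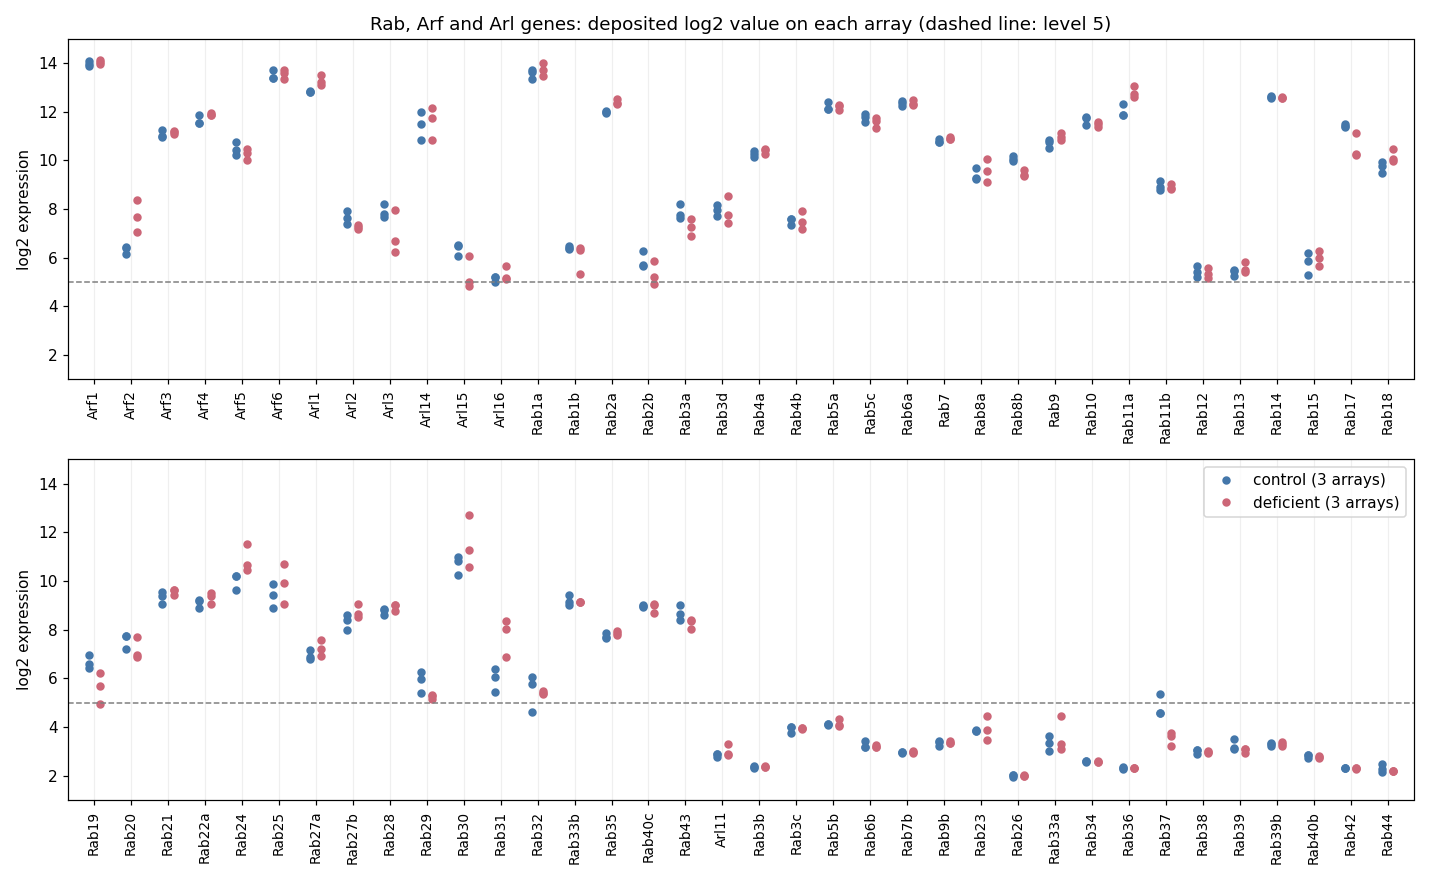
Deposited log2 value of each of the 72 members (x axis, by family and number, tested members first) on the 3 control and the 3 deficient arrays. Each point is 1 mouse and the dashed line is the level of 5. Most members show overlapping groups, Rab31 and Arf2 stand higher in the deficient arrays, and the 19 members at the end of the lower panel lie almost wholly below the line.

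Of the 19 members that were not tested, 18 were at or below 5 on all 6 arrays. They were Arl11, Rab3b, Rab3c, Rab5b, Rab6b, Rab7b, Rab9b, Rab23, Rab26, Rab33a, Rab34, Rab36, Rab38, Rab39, Rab39b, Rab40b, Rab42 and Rab44. Several of these, such as Rab3b, Rab3c and Rab26, are known from neurons or regulated secretory cells. The remaining one, Rab37, a GTPase of secretory granules, read 4.59, 5.34 and 4.56 in control replicates 1, 2 and 3. The deficient arrays gave 3.23, 3.64 and 3.75 in the same order. All deficient values were below all control values, but only control replicate 2 was above 5, so no fold is given.

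Rab proteins of the endoplasmic reticulum and Golgi include Rab1a, Rab1b, Rab2a and Rab2b, which carry cargo between these organelles, and Rab6a, which acts in retrograde traffic through the Golgi. Of 10 tested members of this group, 5 were higher and 5 lower, 0 passed the threshold with limma, and 1 in each direction reached an unadjusted p under 0.05. Rab2a read 11.97, 12.04 and 12.01 in controls and 12.36, 12.54 and 12.34 in deficient arrays. The groups did not overlap and both were tight, at 12.01 ± 0.04 and 12.41 ± 0.11 (SD, n = 3 each). The change was 0.40 ± 0.15 (SE, limma adjusted p = 0.250). Rab19, a Golgi-associated Rab, read 6.95, 6.44 and 6.60 in controls and 4.94, 6.24 and 5.70 in deficient arrays. All deficient values were below the controls, with deficient replicate 1 just under the filter level. Its change was -1.04 ± 0.34 (SE, limma adjusted p = 0.208).

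Further members of this group included several at their control level. Rab1a, Rab6a and Rab33b were at 0.16, 0.01 and -0.07, and the interval of Rab6a ran from -0.35 to 0.37. Rab18, which acts at the endoplasmic reticulum and on lipid droplets, was at 0.44 (limma adjusted p = 0.327), with all deficient values above the controls. Rab43 and Rab2b were at -0.41 and -0.55. Rab1b was at -0.39, with deficient values of 5.35, 6.41 and 6.33 against 6.36, 6.5 and 6.39 in controls, so that deficient replicate 1 alone stood apart. Without that array the Rab1b change was -0.04. Rab30, a Golgi Rab, was at 0.84 ± 0.53 (SE). Its deficient values were 12.71, 11.27 and 10.57 against 10.24, 10.81 and 10.98 in controls, so that deficient replicate 1 stood far above the rest while replicate 3 lay among the controls. Without that replicate the Rab30 change was 0.25.

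Rab proteins of the early endosome are led by Rab5a and Rab5c, which drive the fusion of incoming vesicles, and by Rab21, Rab22a and Rab31, which sort cargo there. Rab31 had the largest change of all members. It read 5.42, 6.05 and 6.39 in controls and 8.36, 8.02 and 6.88 in deficient arrays, or 5.95 ± 0.49 and 7.75 ± 0.77 (SD, n = 3 each). All deficient values were above all controls, and deficient replicate 3 was the nearest to them. The change was 1.80 ± 0.43 (SE), or 3.48-fold, with a limma adjusted p of 0.118. Without deficient replicate 3 it was 2.23 and passed, with a limma adjusted p of 0.0282. Without deficient replicate 2 it was 1.67 (limma adjusted p = 0.346). Over the 16 alternatives that gave a value, it ran from 1.40 to 2.23.

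Rab24, which is linked to autophagy and was placed with this group, read 10.19, 9.65 and 10.22 in controls and 10.64, 11.54 and 10.44 in deficient arrays. Deficient replicate 2 was the highest, and the groups did not overlap. The change was 0.85 ± 0.33 (SE, limma adjusted p = 0.264), and a further probe set gave 0.84. Without deficient replicate 2 it was 0.52 (limma adjusted p = 0.479). Rab5a was at -0.01, with an interval from -0.40 to 0.38, and Rab5c was at -0.21. Rab21 and Rab22a were at 0.25 and 0.21, and Rab20, an endosomal and phagosomal Rab, was at -0.38. In this group 4 of 7 tested members were higher, 0 passed the threshold with limma, and 2 (Rab31 and Rab24) reached an unadjusted p under 0.05.

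Rab proteins of the late endosome and lysosome had 4 tested members. Rab7, which controls fusion of late endosomes with lysosomes, was at 0.10, with an interval from -0.24 to 0.45. Rab9, which recycles receptors from late endosomes to the Golgi, was at 0.28, with all deficient values above the controls and a limma adjusted p of 0.413. Rab32, a Rab of mitochondria and lysosome-related organelles, was at -0.07. Its control values were wide, at 6.07, 4.60 and 5.76. Rab29, which acts at the Golgi and on lysosomes, read 6.25, 5.38 and 5.98 in controls and 5.33, 5.16 and 5.27 in deficient arrays. The deficient values were close together and just below the lowest control, control replicate 2. The change was -0.62 ± 0.24 (SE, limma adjusted p = 0.276).

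**Figure D2:**
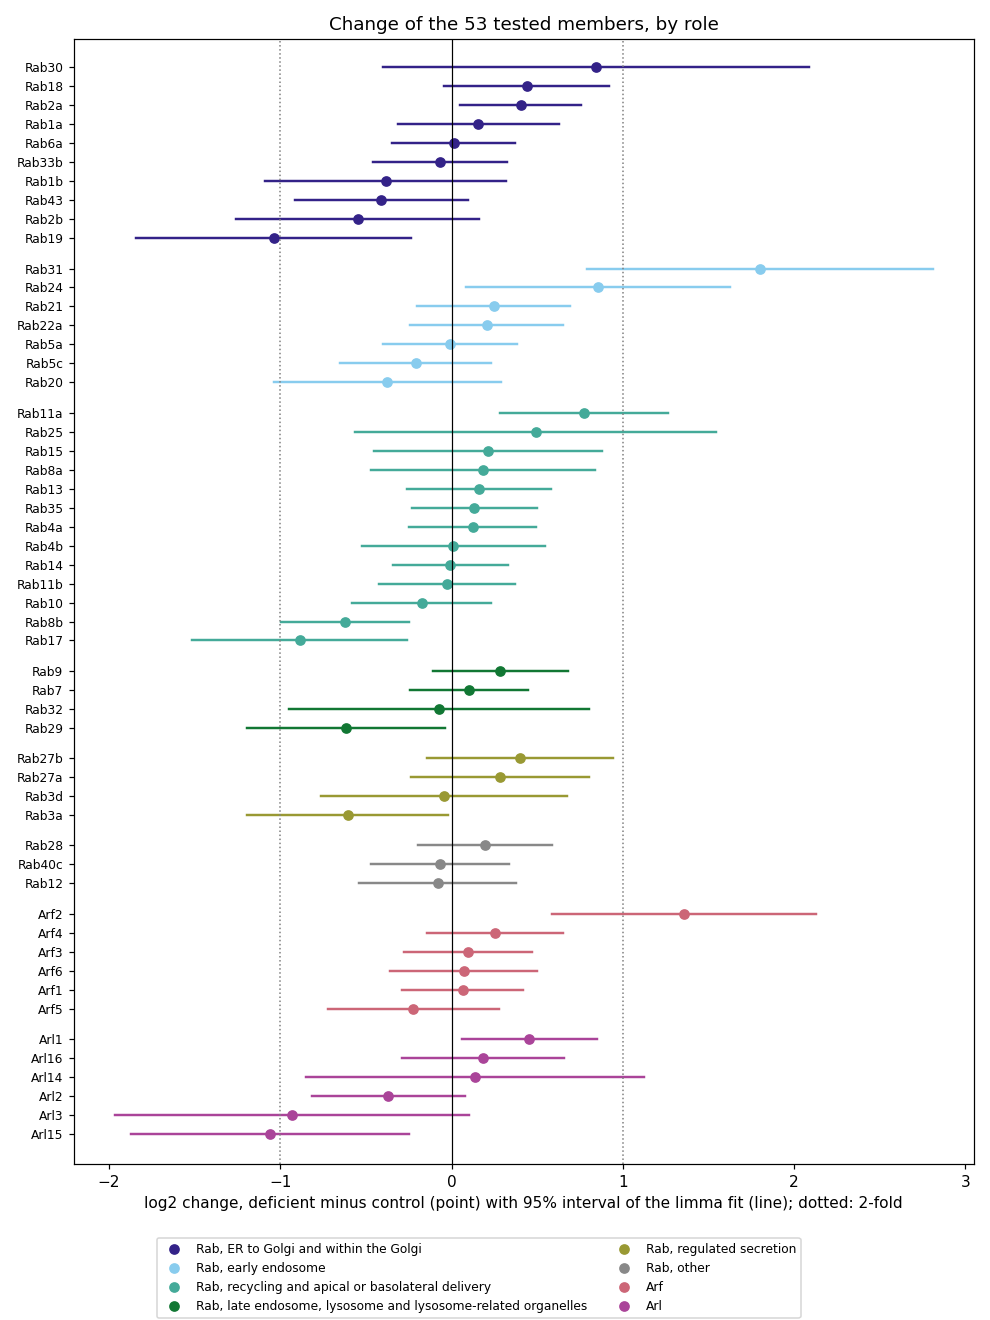
Log2 change, deficient minus control (x axis), of the 53 tested members (y axis), grouped and coloured by role. Points are fitted changes, lines are 95% intervals of the limma fit, and dotted lines mark 2-fold. Most points lie between the dotted lines, with Rab31 at 1.80 and Arf2 at 1.36 on the right and Rab19 at -1.04 and Arl15 at -1.06 on the left.

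Promoter sequence was examined as a feature that the choice by symbol did not use. RefSeq windows of assembly GRCm38.p6, from 250 bases before to 50 after a gene's start, were given for 60 members, 47 of them tested. Where a gene had several windows, its highest value was taken, and a motif was counted if any window held it. Genes with more windows thus had more occasions for a match, and the part of this in the shares was not tested. Member promoters were rich in G and C, with a median over genes of 64.2% and 25 CpG dinucleotides, against 53.3% and 8 over 27025 genes. Among tested members the median count of CpG was 26, and among the 13 others it was 15. Rab17 and Arl14 were at the low end, with 5 and 3 CpG. The Golgi stress element ACGTGGC, a motif known from genes of Golgi traffic, was found on either strand in the windows of 6 members: Arf1, Arf5, Arl3, Rab24, Rab29 and Rab5a. They make 10% of the members with a window, against 2.95% of all genes with one. Those genes were not limited to genes on the array or to genes tested, so the 2 shares are not matched for expression. The element holds a CpG, and the part of base composition in this share was not tested. Shares for the E-box CACGTG, the cyclic AMP response element TGACGTCA and the CCAAT box, CCAAT, were 15%, 3.33% and 55% of the members and 8.09%, 2.03% and 41.1% of all genes. The E-box and the Golgi stress element share letters and can overlap.

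The 250 bases before the start are printed for Rab31, whose change was the largest, and for Rab24 and Rab29, which hold the Golgi stress element and whose RNA stood on opposite sides of the controls. Capitals mark matches to the motifs above on either strand, and sequences run 5′ to 3′ on the gene's strand. The windows are chr17:65772753-65773002, minus strand, chr13:55321981-55322230, minus strand, and chr1:131867027-131867276, plus strand.
Rab31: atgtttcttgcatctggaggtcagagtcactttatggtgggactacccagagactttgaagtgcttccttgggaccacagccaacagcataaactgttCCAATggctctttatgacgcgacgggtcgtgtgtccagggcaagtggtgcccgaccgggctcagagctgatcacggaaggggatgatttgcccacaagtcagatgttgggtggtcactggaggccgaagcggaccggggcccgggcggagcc
Rab24: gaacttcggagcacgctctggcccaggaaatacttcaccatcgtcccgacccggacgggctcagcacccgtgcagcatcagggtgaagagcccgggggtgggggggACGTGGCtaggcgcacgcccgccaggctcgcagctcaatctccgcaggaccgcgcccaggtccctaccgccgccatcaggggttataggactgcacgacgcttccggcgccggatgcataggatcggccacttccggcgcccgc
Rab29: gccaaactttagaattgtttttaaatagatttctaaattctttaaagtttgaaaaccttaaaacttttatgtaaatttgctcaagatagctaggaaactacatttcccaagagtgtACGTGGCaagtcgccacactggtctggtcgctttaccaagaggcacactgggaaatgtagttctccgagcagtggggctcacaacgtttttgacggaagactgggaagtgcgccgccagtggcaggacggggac
The Golgi stress element began 144 bases before the start in Rab24 and 134 bases before it in Rab29. The Rab31 window held a CCAAT match 152 bases before the start and no Golgi stress element. The 6 members with the element did not share a direction: Rab24, Arf1, Arf5, Rab5a, Rab29 and Arl3 were at 0.85, 0.06, -0.22, -0.01, -0.62 and -0.93.

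Rab proteins of recycling and polarised delivery were the largest group, with 13 tested members, and include those that supply the apical surface of enterocytes. By mean, 8 were higher and 5 lower, 0 passed the threshold with limma, and 1 higher and 2 lower genes reached an unadjusted p under 0.05. Rab11a, which carries recycling endosome cargo to the apical membrane, read 11.88, 11.89 and 12.33 in controls and 13.07, 12.74 and 12.61 in deficient arrays. The groups were 12.03 ± 0.25 and 12.81 ± 0.24 (SD, n = 3 each) and did not overlap. The change was 0.77 ± 0.21 (SE), or 1.71-fold, with a limma adjusted p of 0.154. A second Rab11a probe set gave a change of 0.07, so the difference was not seen in both.

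Rab17 is an epithelial Rab of apical recycling and transcytosis. It read 11.50, 11.39 and 11.40 in controls and 10.27, 10.23 and 11.13 in deficient arrays. Deficient replicates 1 and 2 were well below the tight controls, and deficient replicate 3 was close under them. The change was -0.89 ± 0.27 (SE, limma adjusted p = 0.185). Without deficient replicate 3 it was -1.18 and passed, with a limma adjusted p of 0.0313. Without deficient replicate 2 it was -0.73 (limma adjusted p = 0.424). Another Rab17 probe set was at -0.08.

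Rab8b, a relative of the apical delivery factor Rab8a, read 10.08, 9.96 and 10.20 in controls and 9.59, 9.41 and 9.36 in deficient arrays. Both groups were tight, at 10.08 ± 0.12 and 9.46 ± 0.12 (SD, n = 3 each), and did not overlap. The change was -0.62 ± 0.16 (SE), or 1.54-fold lower, with a limma adjusted p of 0.137. It passed with array weights, at -0.73 and a limma adjusted p of 0.0365, where 3.29% of all genes tested passed. Rab8a itself, whose loss in mice is known to disturb the brush border, was at 0.18, with an interval from -0.47 to 0.84.

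The remaining members of this group had smaller changes. Rab25, the epithelial relative of Rab11a, was at 0.49 ± 0.45 (SE), with deficient values of 9.06, 10.71 and 9.92 that spanned the controls. Rab14, of endosome to Golgi and apical traffic, was at -0.01, and its 6 values lay between 12.55 and 12.64. Rab11b and Rab4b were at -0.03 and 0.01. Rab4a, Rab13, Rab15 and Rab35 were between 0.12 and 0.22, and Rab10, a Rab of basolateral delivery, was at -0.17.

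Rab proteins of regulated secretion had 4 tested members. Rab3a, known from neurotransmitter and hormone release, read 7.64, 8.20 and 7.76 in controls and 7.28, 6.89 and 7.61 in deficient arrays. Deficient replicate 3 was barely below the lowest control. The change was -0.61 ± 0.25 (SE, limma adjusted p = 0.285). The Rab3a probe set used has a design that can match several transcripts. The other Rab3a probe set, of plain design, had a mean of 1.94 and was above 5 on 0 arrays. Whether the values are those of Rab3a RNA was not tested. Rab3d, which is found on exocrine granules, was at -0.04. Rab27a and Rab27b, which tether secretory and lysosome-related granules, were at 0.29 and 0.40 (limma adjusted p = 0.527 and 0.407). Among Rab genes outside these groups, Rab28 had the smallest p. It read 8.84, 8.60 and 8.80 in controls and 9.02, 8.77 and 9.03 in deficient arrays, so that the groups overlapped. Its change was 0.19 ± 0.17 (SE, limma adjusted p = 0.564). Rab12, a recycling and autophagy Rab, and Rab40c, part of a ubiquitin ligase, were at -0.08 and -0.07.

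All 6 Arf genes were tested. Arf1 and Arf3 recruit coats at the Golgi, Arf4 and Arf5 act earlier in the secretory route, and Arf6 acts at the plasma membrane. Arf2, a class I Arf like Arf1, had the second largest change of the members. It read 6.45, 6.17 and 6.40 in controls and 8.37, 7.66 and 7.07 in deficient arrays. The controls were tight at 6.34 ± 0.15 and the deficient arrays spread at 7.70 ± 0.65 (SD, n = 3 each), and all deficient values were above the controls. The change was 1.36 ± 0.33 (SE), or 2.56-fold, with a limma adjusted p of 0.121. Without deficient replicate 3 it was 1.67 and passed, with a limma adjusted p of 0.0371. Without deficient replicate 2 it was 1.38 (limma adjusted p = 0.315). The other Arf genes were at 0.06 (Arf1), 0.10 (Arf3), 0.25 (Arf4), -0.22 (Arf5) and 0.07 (Arf6). The interval of Arf1 ran from -0.29 to 0.42 and that of Arf6 from -0.36 to 0.50. Other probe sets above 5 on all 6 arrays gave 0.84 for Arf1, 0.16 and 0.51 for Arf3, and -0.12 and 0.94 for Arf4. Those of Arf6 ran from -0.13 to 0.48. The median over the 6 was 0.08, and it was 0.16 with median centring. Over the Arf genes tested there, it was 0.15 with the mean over probe sets and 0.25 with plain probe set designs.

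Of the 7 Arl genes 6 were tested, with 3 higher and 3 lower. Arl1, which recruits golgin tethers to the trans-Golgi, read 12.80, 12.86 and 12.81 in controls and 13.51, 13.11 and 13.21 in deficient arrays. The groups did not overlap, and the control SD of 0.03 was the smallest among the tested members. The change was 0.46 ± 0.17 (SE, limma adjusted p = 0.250), and a second probe set gave 0.62. Arl15, a less studied Arl linked to adipokine secretion, read 6.52, 6.48 and 6.06 in controls and 4.83, 4.99 and 6.06 in deficient arrays. Deficient replicate 3 was level with control replicate 3, and the other deficient values were just under the filter level. The change was -1.06 ± 0.34 (SE, limma adjusted p = 0.205). Without deficient replicate 3 it was -1.44 and passed, with a limma adjusted p of 0.0344. Without deficient replicate 2 it was -0.91 (limma adjusted p = 0.441).

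Arl3, which releases lipidated cargo from carriers for cilia, read 7.79, 8.23 and 7.66 in controls and 6.68, 6.23 and 7.96 in deficient arrays. Deficient replicates 1 and 2 were below the controls while replicate 3 lay among them. The change was -0.93 ± 0.44 (SE, limma adjusted p = 0.330), and -1.43 without that replicate (limma adjusted p = 0.0552) but -0.57 without deficient replicate 2. Arl2, which acts in tubulin folding and in mitochondria, was at -0.37, with all deficient values below the controls. Arl14, a GTPase described in epithelial and antigen-presenting cells, was at 0.13, with an interval from -0.85 to 1.12. Arl16 was at 0.18. The median over the 6 tested Arl genes was -0.12, and it was 0.13 without a filter, where Arl11 was included.

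**Figure D3:**
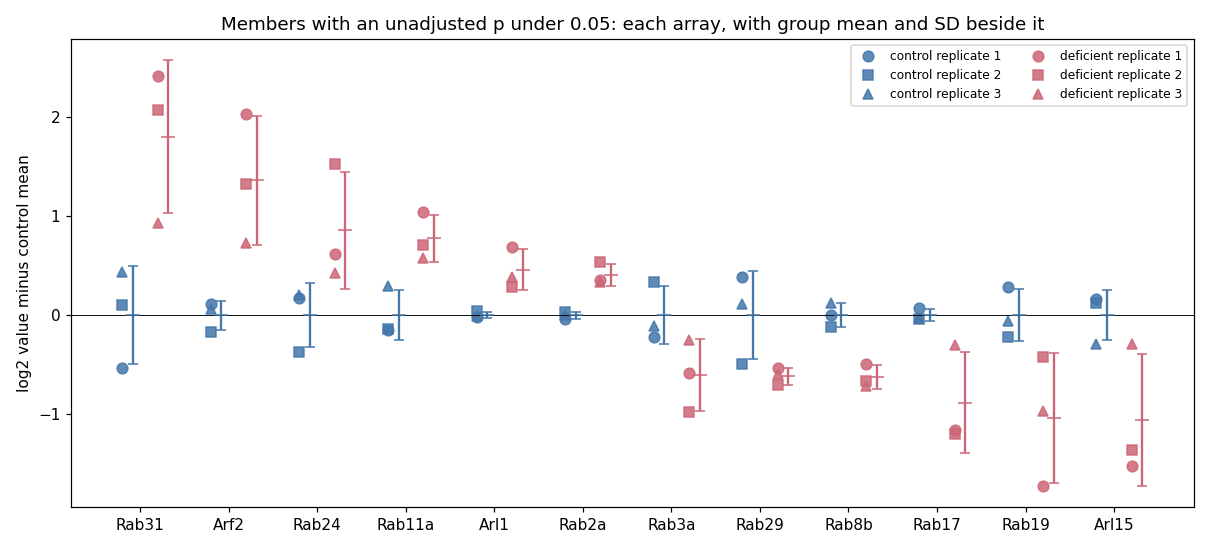
Log2 value minus the control mean (y axis) on each array for the 12 members with an unadjusted p under 0.05 (x axis). Symbols are replicates, and the bars beside them are group means with SD over 3 mice. Deficient replicate 3, the triangle, was the deficient array nearest to the controls in Rab31, Arf2, Rab24, Rab11a, Rab2a, Rab3a, Rab17 and Arl15.

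Deficient replicate 3 bore on the calls. Without that array 4 members passed with limma: Rab31 and Arf2 rose and Rab17 and Arl15 fell, against 2.69% of all genes tested. None of the other 5 arrays brought a member past the threshold when left out. The spread of the deficient arrays was larger than that of the controls in 32 of the 53 tested members. Median SDs over the members were 0.212 in deficient arrays and 0.195 in controls. The share over all genes tested was not computed.

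Paralogs with the same Rab number were compared within each array, in all 8 pairs with both genes tested. Log2 values of the pair were subtracted and the difference compared between groups by a two-sided exact permutation test, for which 0.10 is the smallest p that 3 against 3 arrays allow. In 4 pairs the differences of the 2 groups did not overlap, which is the same outcome as that smallest p (0.20 adjusted over the 8). The comparison was added after the values were seen, and Rab2a, Rab8b and Rab11a already had an unadjusted limma p under 0.05. Among single genes tested 25.7% did not overlap, and the share among pairs of genes in general was not computed. The 4 pairs included Rab2a against Rab2b, with changes of 0.40 and -0.55, and Rab8a against Rab8b (0.18 and -0.62). The others were Rab11a against Rab11b (0.77 and -0.03) and Rab1a against Rab1b (0.16 and -0.39, the latter -0.04 without deficient replicate 1). Further probe sets above 5 on at least 3 arrays gave 0.07 for Rab11a, -0.42 to 0.31 for Rab2a, and -0.14 and 0.25 for Rab1a. The pairs were not compared with those probe sets. In Rab27a and Rab27b the 2 changes were alike, at 0.29 and 0.40 (exact permutation p = 0.60). Rab3, Rab4 and Rab5 pairs gave exact permutation p of 0.30, 0.50 and 0.20.

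Probe sets of 1 gene did not always move together. The 72 members had 165 probe sets, and 22 tested members had several above 5 on at least 3 arrays. In 10 of these 22 the probe sets had both signs. Rab10 was at -0.17 in the probe set used and at -0.23 and 0.44 in the others. Rab2a ran from -0.42 to 0.40 over 5 probe sets, and Arf4 from -0.12 to 0.94 over 3. Rab18 was at 0.44 and 1.61, Arf1 at 0.06 and 0.84, and Rab7 at 0.10 and 0.62. Rab24 and Arl1 had probe sets of like change, given above. Rab31, Arf2, Rab8b, Rab19, Rab29, Rab3a and Arl15 rest on a single probe set above the level. In 16 of the 53 tested members the probe set used has a design that can match several transcripts, among them Rab11a, Rab17, Arl1 and Rab3a, so related transcripts may contribute to their values.

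**Figure D4:**
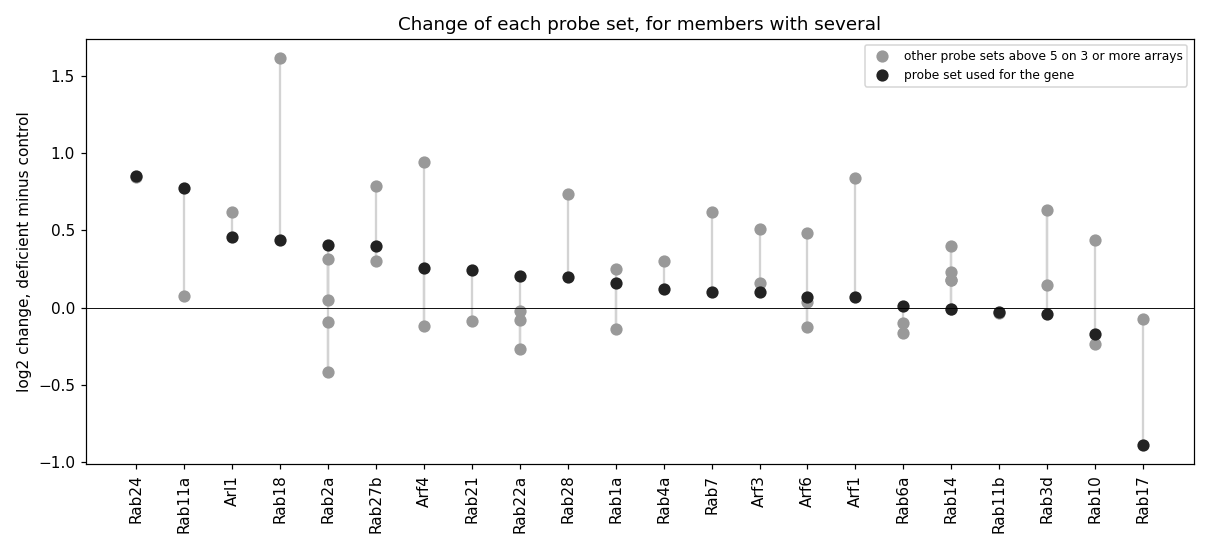
Log2 change, deficient minus control (y axis), of each probe set above 5 on at least 3 arrays, for the 22 tested members with several such probe sets (x axis). Black points are the probe sets used, grey points the others. Rab24 and Arl1 show like values, while Rab11a, Rab17, Rab18 and Arf4 differ by over 0.5 between probe sets.

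Partners of these GTPases were examined through 8 lists that hold their processing enzymes, regulators, effectors and coats. Of 172 tested partners, 2 fell and 0 rose (limma, adjusted over all genes), beside 1.98% of all genes tested that were called lower and 0.112% called higher. At an unadjusted p under 0.05, 20 partners were lower and 6 higher, where 11.3% and 5.60% of all genes tested were, so that the shares are near or below the background. The median change was -0.05. The enzymes and carriers that lipidate Rab proteins and recycle them were close to their control levels. All 8 were tested, and 0 reached a limma p under 0.05 even before adjustment. The Rab prenyltransferase subunits Rabggta and Rabggtb were at 0.20 and 0.04, and the escort protein Chm was at -0.14. The dissociation inhibitor Gdi2 was at 0.00, with 14.01, 14.28 and 14.00 in controls and 14.34, 13.95 and 14.02 in deficient arrays. The 4 genes for myristoylation and removal of the first methionine were all higher by mean, with Nmt2 at 0.67 and Nmt1 at 0.36 (limma adjusted p = 0.328 and 0.385).

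The 2 partners that fell were GTPase-activating proteins. Tbc1d10c, a Rab GTPase-activating protein abundant in lymphocytes, read 7.03, 6.83 and 6.5 in controls and 2.44, 3.45 and 3.24 in deficient arrays. It fell at least 3.45-fold, taking the level 5 for the deficient arrays, with a limma adjusted p of 0.00166. It passed the filter through the control arrays alone, and that p comes from a fit that used the deficient values below 5 as deposited. Acap1, an Arf6 GTPase-activating protein that acts in recycling and is also abundant in lymphocytes, read 7.84, 8.69 and 7.50 in controls and 4.54, 4.63 and 5.56 in deficient arrays. It fell at least 7.08-fold with values under 5 raised to 5 (limma adjusted p = 0.00996). Acap1 did not pass without control replicate 1 or deficient replicate 2 (limma adjusted p = 0.0529 and 0.0564). The Acap1 probe set used has a design that can match several transcripts. The Tbc1d10c call held whichever of the 6 arrays was omitted. Those fits kept the genes filtered over all 6 arrays, so they do not test the passage of Tbc1d10c through the filter.

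In the other partner lists 0 members passed with limma, and values are given for those of smallest p. Among exchange factors, which load Rab proteins with GTP, Dennd5a was at -1.44 and Als2cl at -0.98 (limma adjusted p = 0.0926 and 0.106). There 1 of 28 was higher and 6 lower at an unadjusted p under 0.05, a level that 5.60% of all genes tested reached in the higher and 11.3% in the lower direction. Among Rab effectors and tethers, the exocyst subunit Exoc5 was at 0.75 and Rabep2, a Rab5 effector, at -0.66, with 2 of 46 higher and 6 lower at that level. Among Arf exchange factors Cyth3 was at -0.81 and Gbf1 at -0.46, and 1 of 9 was lower at that level. Among Arf and Arl effectors and coats the adaptor subunit Ap1s1 was at 0.58 and Arfip1 at 0.55, and 2 of 33 were higher. In the lists that hold Tbc1d10c and Acap1, 1 of 23 and 1 of 21 passed.

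Of the marker lists, only those of T cells and of myeloid cells held members past the threshold in limma. Markers of both lists could pass the filter through the 3 control arrays alone, and values below 5 entered the fit as deposited. How many did so was not counted. The list of T cells and intraepithelial lymphocytes had 14 of 17 members tested, all lower, and 12 fell (limma, beside 1.98% of all genes tested). Its mean level was 9.48 to 9.57 in controls, and the deficient arrays stood at 5.49, 6.14 and 6.97, replicate 3 being the highest. The defining markers Cd247, Cd2 and Prf1 were at or below 5 on all arrays. The myeloid list had 8 of 11 tested, 4 fell, and its level was 8.01 to 8.73 in controls and 6.48 to 7.18 in deficient arrays, with Cd68, Itgam and Cx3cr1 at or below 5 throughout. The stromal list stood at 7.62 to 8.42 and 6.92 to 7.46, with 0 of 5 tested members past the threshold in limma. Its markers Col1a1, Des, Pecam1 and Cdh5 were at or below 5 throughout. The list of stem and cycling cells stood at 6.72 to 8.75 in controls, lowest in control replicate 2, and at 8.55 to 8.98 in deficient arrays. Its stem cell markers Lgr5 and Ascl2 were at or below 5 throughout, so that level comes from the other 7 of its 9 members. Enterocyte markers stood at 14.1 to 14.5 and 13.5 to 14.2. The part of these shifts in the values of Tbc1d10c and Acap1 and of the members that were lower was not tested. B and plasma cell, goblet, Paneth and enteroendocrine lists had 0 members past the threshold in limma, and of the tuft list 0 of 6 members were tested.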

How the data were processed

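RNA was measured on Affymetrix arrays, 1 per mouse, in 2 groups of 3. The authors deposited expression on a log2 scale for each probe set and array, as the range of 0.42 to 16.4 bears out. GCRMA and Partek 6.5 are named, without their roles, per the submitters' processing notes. GCRMA gathers unexpressed probe sets near a floor, so low values understate changes. Of 45101 probe sets, 64 controls were left out, 34945 had 1 symbol in the platform annotation, 932 several and 9160 none. The comparison used limma (version 3.58.1, under R version 4.3.3) with lmFit, eBayes and no covariate, p-values were adjusted by Benjamini-Hochberg over all genes tested, and the fit was checked on simulated data. The number of arrays limits the precision. Nothing in the files gives a scan batch, so none could be tested.

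Members, roles, partner and marker lists were chosen with earlier results of these data known. Members past the threshold or with an unadjusted p under 0.05, and the smallest p of a role without one, are given with every array. Of the partners, those called and otherwise up to 2 of smallest p per list are named. Of 223 partner symbols, 213 were on the array as non-members. The paralog pairs and promoter motifs were added after the values were seen. A planned grouping by lipid anchor was not run, because protein sequences were not used here. Alternatives changed the filter, normalization, choice of probe set, variance moderation, array weighting or blocking on the replicate number, or omitted 1 array at a time.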

Additional observations from a re-analysis of the deposited data

How the results depend on the processing

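The 0 members called lower and 0 called higher held under the 3 other filters, quantile normalization, median centring, both other ways of choosing probe sets, both other variance settings and the replicate block. Fewer members were tested with the filter at 6 (47), with the mean over probe sets (45) and with plain probe set designs (49). Rab31, Arf2 and Rab3a were not tested with that mean, and Rab3a was not tested with plain designs either. With array weights 1 member was called lower (Rab8b). Leaving out 1 array gave 0 to 2 members lower and 0 to 2 higher, the 2 in each direction coming without deficient replicate 3 (Rab17 and Arl15 lower, Rab31 and Arf2 higher). The labels state no pairing by replicate number. Deviations of same-numbered arrays correlated at 0.05, -0.29 and 0.0021, which cannot settle whether the arrays were paired. With the replicate block the members called were 0 and 0, while all genes called were 132 lower and 9 higher in place of 176 and 10. The partners called lower, 2, became 1 without a filter, with the mean over probe sets and with plain probe set designs, 5 with array weights, and 1 to 3 when 1 array was left out. Acap1 lost its call without a filter (limma adjusted p = 0.0952). With the mean over probe sets and with plain probe set designs Acap1 was not tested, as it did not pass the filter there. The partners called higher stayed at 0 in every alternative run. The median change of the members, 0.07, was 0.0094 without a filter, 0.15 with median centring, 0.13 with plain probe set designs, and 0.03 to 0.09 when 1 array was left out. The causes were not tested. With 3 arrays per group, a 2-fold change lay within the interval of 16 members, and members near the floor are measured with a compressed scale.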
